A study of Mus musculus with 88 samples.

Results

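The soleus of 5 mice carrying a Cdh15 knockout (KO) was compared with that of 5 wild-type (WT) mice by RNA sequencing, over all genes. These 10 libraries were taken by their tissue and genotype labels from a series of 88 libraries that covers 9 tissues. All 10 mice were males of pure C57BL/6NTac background that had been fasted for 18 h. The KO mice were 65 to 85 days old and the WT mice 65 to 83 days. Each library came from 1 mouse and libraries are named by genotype and mouse, as in KO 3805666. Which part of Cdh15 the allele lacks was not stated in the labels used here. The comparison asks which transcripts differ between KO and WT soleus. The dissected soleus libraries differed widely in Myh4, a transcript abundant in neighbouring fast muscle.

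The Cdh15 product, M-cadherin, is a calcium-dependent adhesion molecule that joins muscle precursor cells and fibres at adherens junctions through catenins. The soleus is a postural calf muscle that lies under the gastrocnemius and beside the plantaris, and it is known for slow and oxidative fibres. Adult fibres are classed by their myosin heavy chain: Myh7 marks slow type I fibres, Myh2 fast oxidative IIa fibres, Myh1 IIx fibres and Myh4 the glycolytic IIb fibres that dominate fast calf muscles and are scarce in mouse soleus.

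The 10 libraries held 15.12 M to 22.85 M expected counts (M, mega) on 24453 genes, of which 12965 passed the filter on low counts. Levels are in CPM, counts scaled to a common library total with TMM factors, and levels of different genes are compared only as RPKM, which also divides by exon length. Differences are log2 fold changes of KO over WT from edgeR's quasi-likelihood test with Benjamini-Hochberg adjustment, with an adjusted p under 0.05 as the threshold. Sample quality weights from limma, where a low weight marks a library that fits its group less closely, ran from 0.384 for KO 3805666 to 1.99 for KO 3817943. KO 3805666 also stood apart in its myosin genes. Values per library are given in the order WT 3793543, 3793553, 3805657, 3805673 and 3817948, then KO 3779417, 3793546, 3805666, 3805676 and 3817943.

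Cdh15 (Entrez 12555, mm10 chromosome 8, 122848370 to 122867400, 14 exons) was low in every KO library. It measured 12.5, 16.4, 17.4, 20.3 and 20.9 CPM in the WT libraries and 2.36, 2.28, 1.78, 2.53 and 3.93 CPM in the KO libraries. The groups did not overlap, and every KO library kept some reads of the gene. The difference of -2.77 (SE 0.20, n = 5 and 5) passed the threshold (edgeR adjusted p = 0.000161), and without KO 3805666 it was -2.66. The deposited table also counts reads on marker sequences, among them the reporter LacZ, a bacterial beta-galactosidase gene. LacZ had 0 reads in all 5 WT libraries, where 3 reads, the limit that a count of 0 allows, would be 0.146 to 0.198 CPM. The KO libraries held 88, 140, 120, 156 and 116 LacZ reads, a mean of 6.11 CPM against 0 (exact permutation test, two-sided, p = 0.00794, the smallest that 5 against 5 libraries can give). Reads of an SV40 marker numbered 4 to 13 in the KO libraries and 0 in the WT libraries. Every library thus carried the transcript pattern of its label: LacZ reads and low Cdh15 in the 5 labelled KO, neither in the 5 labelled WT. LacZ reads also stood at a mean of 141.8 in KO EDL, 127.2 in KO gastrocnemius and 64.6 in KO tibialis, and at 0 in all KO heart, liver, lung and spleen libraries. Outside these, 1 KO kidney library held 1 LacZ read, and 1 WT EDL library held 3.

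**Figure D1:**
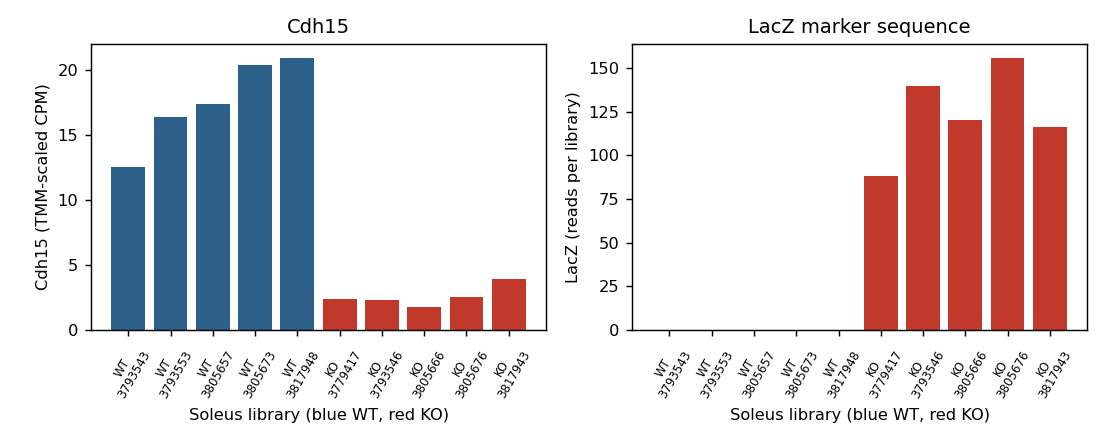
Cdh15 level (left, TMM-scaled CPM) and reads on the LacZ marker sequence (right) in each soleus library, with 1 bar per library, WT in blue and KO in red. All 5 KO bars for Cdh15 lie at 3.93 CPM or lower and all 5 WT bars at 12.5 CPM or higher, and LacZ reads appear in the KO libraries alone.

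Myh4 (mm10 chromosome 11, 67237812 to 67260447) varied widely between libraries of both genotypes. It measured 28392, 60933, 52507, 69939 and 52300.3 CPM in the WT libraries and 26865, 40807, 84.7, 31415 and 29739 CPM in the KO libraries. KO 3805666 was almost without it, and WT 3793543 was the only WT library within the KO range. The edgeR difference of -1.03 (SE 0.93, adjusted p = 0.573) did not pass the threshold. As a direct comparison of 10 values, Myh4 stood at 25782 ± 15286 CPM in KO and 52814 ± 15460 CPM in WT soleus (mean ± SD, n = 5 each, exact permutation test, two-sided, p = 0.0317, also 0.0317 after adjustment over 4 related quantities). Fewer fibres that express a gene and less of its RNA per fibre cannot be told apart in such bulk libraries.

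The same mouse's gastrocnemius gives a scale for how much fast muscle RNA a soleus library could hold. Relative to it, soleus Myh4 stood at 29.3, 62.5, 53.95, 65.3 and 44.5% in the WT libraries and 25.1, 39.4, 0.0822, 27.8 and 28.5% in the KO libraries. Only WT 3793543 fell among the KO values, and KO 3805666 lay at 0.0822%. The means were 24.2 ± 14.5% in KO and 51.1 ± 14.6% in WT soleus (n = 5 each, exact permutation test, two-sided, p = 0.0159, adjusted p = 0.0317). Read as a share of fast muscle in the dissected tissue, these percentages assume that the soleus makes no Myh4 of its own and that the other tissue was like gastrocnemius. Neither assumption was tested, so carried-over muscle and a true change of fibre type within the soleus cannot be told apart from these values. What the libraries do show is that 9 of the 10 held at least 25.1% of the Myh4 level of a fast muscle.

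Expressed as shares of the 4 adult chains by RPKM, the make-up of the libraries spanned most of the possible range. Myh4 formed 55.04, 88.2, 76.4, 85.2 and 75.2% in the WT libraries and 53.9, 65.1, 0.322, 64.9 and 57.2% in the KO libraries. In gastrocnemius it formed 97.5% in WT and 97.3% in KO mice, so WT 3793553 was closer to a gastrocnemius library than to KO 3805666. Slow Myh7 (mm10 chromosome 14, 54970688 to 54994549) formed 8.01, 2.68, 4.86, 2.78 and 3.55% in the WT libraries and 9.69, 5.62, 32.99, 10.99 and 7.199% in the KO libraries. The KO mean of 13.3 ± 11.2% lay above the WT mean of 4.38 ± 2.21% with WT 3793543 inside the KO range (n = 5 each, exact permutation test, two-sided, p = 0.0317, adjusted p = 0.0317), against 0.108% in WT gastrocnemius. In each soleus library Myh7 was therefore far above its share in gastrocnemius. Without KO 3805666 the KO excess of Myh7 was 4.0 percentage points in place of 8.92. Leaving out any of 6 libraries, KO 3805666 among them, raised the adjusted p of this and of the 3 other quantities to between 0.0529 and 0.0952. IIa Myh2 ranged from 4.19 to 15.3% of the chains in WT and from 12.1 to 37.9% in KO libraries, and IIx Myh1 from 4.93 to 21.6% and from 10.6 to 28.8%. These 3 chains share long stretches of sequence with Myh4, and how reads common to them were assigned was not given in the sources used here.

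**Figure D2:**
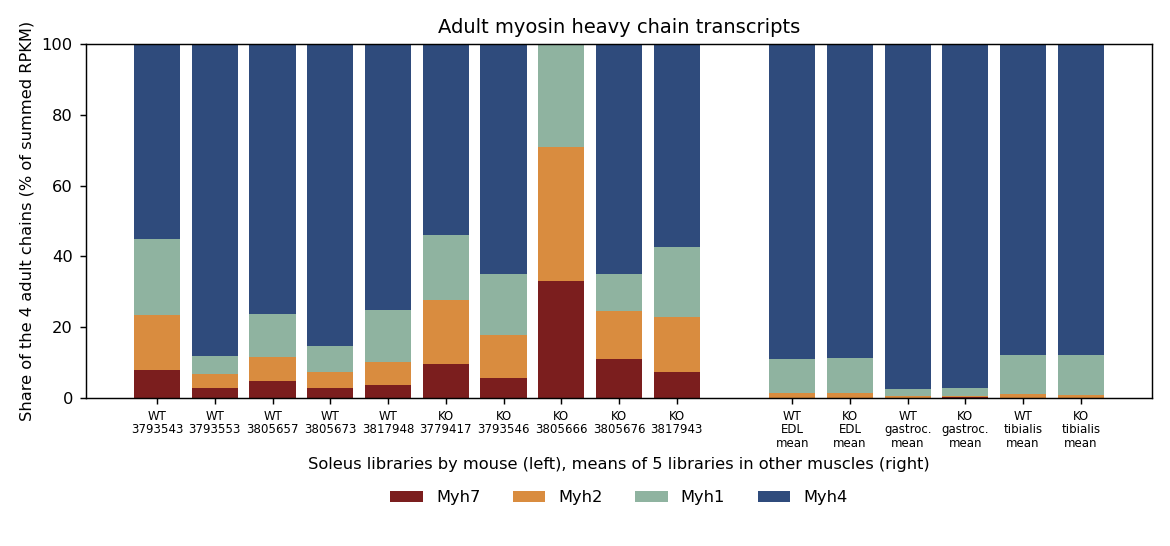
Share of each adult myosin heavy chain in the summed RPKM of the 4 chains (vertical axis, %), stacked per soleus library on the left and as means of 5 libraries of EDL, gastrocnemius and tibialis on the right. Myh4 fills 55.0 to 88.2% of the WT soleus bars and 0.322 to 65.1% of the KO bars, with KO 3805666 the only bar nearly free of it, and 97.5% of the WT gastrocnemius bar.

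Promoter sequence is shown for genes of the fast and the slow program, whose levels differed in opposite directions between these libraries: Myh4 and the fast light chain Mylpf on one side, slow Myh7 and the slow troponin I gene Tnni1 on the other. They cover 100 bases, 5′ to 3′ on the gene's strand, from RefSeq on GRCm38.p6, at chr11:67237712-67237811 (plus strand), chr7:127211508-127211607 (plus), chr14:54994550-54994649 (minus) and chr1:135799411-135799510 (plus). Capitals mark matches to the E-box letters CANNTG, the motif of MyoD-family factors, which reads the same on both strands.
Myh4: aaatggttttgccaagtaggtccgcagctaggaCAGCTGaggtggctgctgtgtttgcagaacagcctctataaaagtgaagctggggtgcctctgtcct
Mylpf: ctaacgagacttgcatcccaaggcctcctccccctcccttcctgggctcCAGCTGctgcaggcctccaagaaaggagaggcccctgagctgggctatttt
Myh7: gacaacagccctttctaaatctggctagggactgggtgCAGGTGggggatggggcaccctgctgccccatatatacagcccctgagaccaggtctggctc
Tnni1: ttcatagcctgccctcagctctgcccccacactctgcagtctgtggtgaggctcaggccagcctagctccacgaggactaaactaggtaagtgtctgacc
Myh4, Mylpf and Myh7 held 1 E-box each and Tnni1 none, while 34.4% of 32851 promoter windows of this length held at least 1. The letters TATAAA, searched on both strands, occurred in the Myh4 window alone of these 4 and in 5.56% of all windows. A match describes these letters and says nothing on binding.

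Across all genes, Cdh15 was the single gene of 12965 to pass the edgeR threshold (0.00771%). An unadjusted p under 0.05 was reached by 2235 genes (17.2%), of which 1092 (8.42%) were higher and 1143 (8.82%) lower in KO soleus. These counts moved with single libraries, from 1484 without WT 3805673 to 2914 without KO 3793546, with 1520 without KO 3805666. Positive fold changes made up 53.4% and negative ones 46.6% of all genes, with a median of 0.02. DESeq2's Wald test called 146 genes, 91 higher (2.16%) and 55 lower (1.3%) of 4217 genes with an adjusted p. It left Cdh15 itself without an adjusted p, at a difference of -2.79 and an unadjusted DESeq2 p of 4.2e-40.

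Among the genes of smallest p that lay higher in KO soleus, Chid1, which encodes a secreted chitinase-like protein, was the nearest to the threshold (edgeR adjusted p = 0.133). It measured 7.15, 6.14, 6.44, 6.42 and 7.07 CPM in the WT libraries and 9.17, 9.31, 10.5, 10.3 and 9.67 CPM in the KO libraries. All KO libraries lay above all WT libraries, with a difference of 0.56, SE 0.08, and a separation of this direction was seen in 218 genes (1.68% of those tested). Postn, which encodes the matrix protein periostin, measured 23.5, 21.3, 17.1, 19.5 and 23.1 CPM in the WT libraries and 52.4, 23.8, 49.5, 50.7 and 36.9 CPM in the KO libraries (1.03, SE 0.20). The groups did not overlap, though KO 3793546 lay next to the WT range. Without KO 3793546, Postn passed the threshold as well (edgeR adjusted p = 0.00558). Sln, which encodes sarcolipin, an inhibitor of the sarcoplasmic calcium pump, measured 6.62, 3.19, 4.97, 3.74 and 3.24 CPM in the WT libraries and 15.2, 6.93, 20.8, 22.6 and 9.56 CPM in the KO libraries (1.80, SE 0.34). KO 3793546 was again the lowest KO library, close to WT 3793543. Xdh, the gene of the purine-degrading enzyme xanthine dehydrogenase (0.42, SE 0.07), Agpat2, an acyltransferase of phospholipid and triglyceride synthesis (0.59, SE 0.11), Grb14, an adaptor that binds the insulin receptor (0.75, SE 0.15), Icam1, an adhesion molecule of vessels and leukocytes (0.62, SE 0.13), and the tRNA methyltransferase gene Trmt2b (0.43, SE 0.07) were higher in all KO than in all WT libraries. Each of these 5, Postn and Sln had an edgeR adjusted p of 0.238.

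On the lower side, 158 genes (1.22%) had all KO libraries below all WT libraries. Slc35e4, of a family of membrane transporters, was the tightest of those named, at 23.9, 23.2, 24.1, 23.8 and 23.7 CPM in the WT libraries and 16.4, 19.8, 20.6, 16.4 and 17.9 CPM in the KO libraries (-0.38, SE 0.08). Its WT values lay within 1 CPM of each other and all KO values below them. Rbm24, a muscle RNA-binding protein that regulates splicing, measured 199, 230.4, 235, 244 and 212 CPM in the WT libraries and 162, 186, 146, 164 and 149 CPM in the KO libraries (-0.47, SE 0.09). KO 3805666 was the lowest, and KO 3793546 lay nearest to the WT range. Mafa, a transcription factor of the large Maf family that is known to drive Myh4, measured 2.05, 2.56, 1.98, 3.105 and 3.49 CPM in the WT libraries and 0.619, 1.49, 0.255, 0.736 and 1.202 CPM in the KO libraries (-1.62, SE 0.35). KO 3805666, the library almost without Myh4, also had the lowest Mafa, and the groups did not overlap. The adhesion gene Cadm1 (-0.73, SE 0.17), the histone methyltransferase gene Kmt2d (-0.38, SE 0.09) and the histone acetyltransferase gene Crebbp (-0.44, SE 0.10) were separated in the same direction, and the Wnt receptor gene Fzd7 (-0.66, SE 0.14) was not fully so. All 7 had an edgeR adjusted p of 0.238.

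Most slow-fibre genes had positive and most fast-fibre genes negative fold changes, and 0 of either list passed the edgeR threshold. DESeq2's Wald test called 10 of the 14 slow-fibre genes it gave an adjusted p, all higher in KO soleus (DESeq2 adjusted p = 0.0181 to 0.0391), and 0 of 17 fast-fibre genes. Over all genes with an adjusted p, it called 2.16% higher and 1.3% lower. Of 18 slow-fibre genes, 17 had positive fold changes (53.4% of all genes) and 15 an unadjusted p under 0.05 in that direction (8.42% of all genes), with a median of 0.90 against 0.02 for all genes. Slow troponin I, Tnni1, measured 347, 242, 272, 218 and 243 CPM in the WT libraries and 436, 329.9, 915, 619 and 355 CPM in the KO libraries (1.01, SE 0.27). KO 3805666 was far above the other libraries, and WT 3793543 lay within the KO range. Slow troponin T, Tnnt1 (0.998, SE 0.27), slow tropomyosin, Tpm3 (1.004, SE 0.28), the slow calcium pump, Atp2a2 (0.96, SE 0.31) and the slow regulatory light chain, Myl2 (0.93, SE 0.25) had nearly the same size of difference. Car3, carbonic anhydrase III, was the exception (-0.18, SE 0.12). Without KO 3805666 the median of the slow list was 0.60, with 17 of 18 still positive.

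Of 17 fast-fibre genes, 16 had negative fold changes (46.6% of all genes) and 10 an unadjusted p under 0.05 in that direction (8.82% of all genes), with a median of -0.52. The fast regulatory light chain Mylpf measured 2707, 4519, 3649, 4468 and 4345 CPM in the WT libraries and 2654, 3579, 1713, 2943 and 2970.5 CPM in the KO libraries (-0.51, SE 0.19). KO 3805666 was lowest, and WT 3793543 lay among the KO libraries as it did for Myh4. Fast troponin T, Tnnt3 (-0.40, SE 0.15), alpha-tropomyosin, Tpm1 (-0.60, SE 0.21), the fast calcium pump, Atp2a1 (-0.53, SE 0.23) and the calcium release channel, Ryr1 (-0.52, SE 0.19) were lower. The IIb-associated genes Actn3, an alpha-actinin (-1.05, SE 0.69), Pvalb, parvalbumin (-0.92, SE 0.57) and Mybpc2, fast myosin-binding protein C (-0.99, SE 0.58) had larger differences and larger errors. Without KO 3805666 the median of the fast list was -0.38. Of 31 regulators of fibre type, 1 was higher (8.42% of all genes) and 5 lower (8.82%) at an unadjusted p under 0.05. Their median was -0.13. Esrrg, a nuclear receptor of oxidative fibres, was the higher one (0.65, SE 0.22). The lower ones were Mafa, Sox6, a repressor of slow genes (-0.54, SE 0.19), Mef2d (-0.27, SE 0.09), Nfatc3 (-0.28, SE 0.09) and Nfatc1 (-0.16, SE 0.07).

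**Figure D3:**
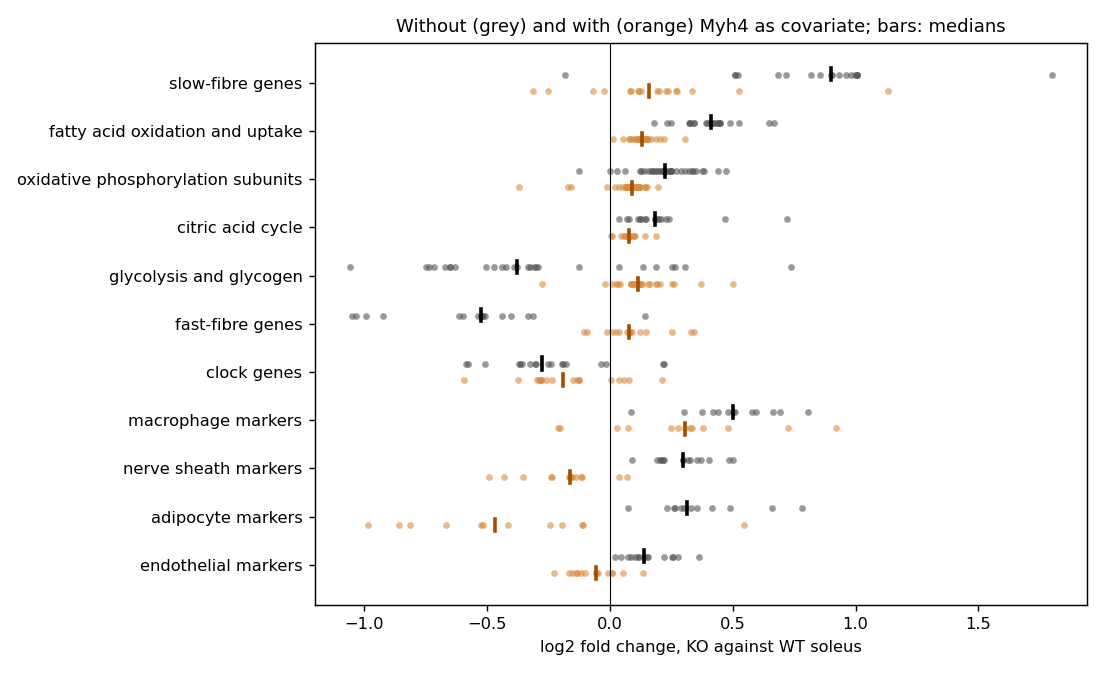
log2 fold change of KO over WT soleus (horizontal axis) for each tested member of 11 gene lists, with 1 point per gene and a bar at the list's median. Grey points come from the comparison of genotypes alone and orange points from the same comparison with Myh4 as a covariate. The slow-fibre median moves from 0.90 to 0.16 and the fast-fibre median from -0.52 to 0.08, where Myh4 has no orange point.

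Of the genes of oxidative metabolism and glycolysis, 0 passed the edgeR threshold. DESeq2's Wald test called 12 of 24 fatty acid genes, 7 of 37 oxidative phosphorylation subunits and 2 of 17 citric acid cycle genes higher in KO soleus. Of all 4217 genes with an adjusted p from that test, it called 2.16% higher. Of the 25 glycolytic genes it gave an adjusted p, it called 1 higher, Ldhb, and 0 lower. All 24 genes of fatty acid uptake and oxidation had positive fold changes (53.4% of all genes), with a median of 0.41. All 24 also had an unadjusted p under 0.05 (8.42% of all genes in that direction). Cpt2, the inner-membrane carnitine palmitoyltransferase, measured 75.8, 62.4, 62.3, 73.7 and 66.7 CPM in the WT libraries and 91.8, 84.6, 94.5, 98.2 and 77.7 CPM in the KO libraries (0.39, SE 0.09). All KO libraries lay above all WT libraries, KO 3817943 by the least. Decr1, which handles unsaturated fatty acids (0.45, SE 0.11), Acaa2, a mitochondrial thiolase (0.52, SE 0.12), Fabp3, the muscle fatty acid-binding protein (0.65, SE 0.21) and Lpl, lipoprotein lipase (0.67, SE 0.22) were further members. Without KO 3805666 the median was 0.33, with all 24 positive.

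Of 37 subunits of oxidative phosphorylation, 36 were positive (53.4% of all genes) and 25 had an unadjusted p under 0.05 (8.42% of all genes). In 18, all KO lay above all WT libraries (1.68% of all genes). The list's median was 0.22, and 0.16 without KO 3805666. Cox7a1, a muscle subunit of cytochrome oxidase, measured 132, 104, 111, 110.2 and 120.5 CPM in the WT libraries and 143, 140.4, 204, 147 and 149 CPM in the KO libraries (0.44, SE 0.11). KO 3805666 stood apart at the top, and the other KO libraries were still above all WT libraries. Ndufb5 of complex I (0.35, SE 0.09) and Sdhb of complex II (0.37, SE 0.10) had the same order of groups. Transcripts of the mitochondrial genome, examined after their values were seen, made up 19 to 21.9% of counts in WT and 22.5 to 26.4% in KO libraries, with no overlap. All 17 citric acid cycle genes were positive and 8 had an unadjusted p under 0.05 (median 0.19), led in size by Idh2, a mitochondrial isocitrate dehydrogenase (0.72, SE 0.20).

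Of 27 genes of glycolysis and glycogen use (median -0.38, and -0.24 without KO 3805666), 20 were negative (46.6% of all genes). An unadjusted p under 0.05 was reached by 7 of these (8.82% of all genes) and by 2 in the other direction (8.42%). Pygm, muscle glycogen phosphorylase, measured 3732, 5823, 5414, 6754 and 5192 CPM in the WT libraries and 3505, 4695, 1493, 3616 and 3819 CPM in the KO libraries (-0.65, SE 0.26). KO 3805666 was lowest and WT 3793543 lay within the KO range. Ldhb, the lactate dehydrogenase subunit of oxidative tissue, went the other way at 459.9, 293, 369, 288 and 316 CPM in the WT libraries and 469, 473, 894, 554 and 488 CPM in the KO libraries (0.74, SE 0.20). The groups did not overlap, but WT 3793543 was within 10 CPM of the lowest KO library.

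Lists of the cadherin junction and of precursor cells had medians of 0.00 to 0.11, near that of all genes. Of 21 cadherins listed, 9 besides Cdh15 were tested, 1 was higher and 1 lower at an unadjusted p under 0.05 and none passed the threshold. Cdh4, R-cadherin, measured 0.596, 3.82, 4.47, 3.81 and 1.79 CPM in the WT libraries and 0.506, 1.02, 0.467, 1.24 and 0.71 CPM in the KO libraries (-1.87, SE 0.47, edgeR adjusted p = 0.238). WT 3793543 lay among the KO libraries, as it did for Myh4. Of 19 tested fusion genes, 2 were higher (8.42% of all genes) and 2 lower (8.82% of all genes) at an unadjusted p under 0.05. Of 14 tested catenins and junction partners, among them beta-catenin Ctnnb1 (0.01, SE 0.06) and p120-catenin Ctnnd1 (0.18, SE 0.09), none had an unadjusted p under 0.05, with a median of 0.11. Of 23 tested satellite cell and myogenic genes, 12 were positive and 11 negative with a median of 0.00. The stem cell factor Pax7 (-0.11, SE 0.17) and the commitment factors Myf5 (0.22, SE 0.29), Myod1 (-0.56, SE 0.31) and Myog (0.20, SE 0.20) did not pass. The fusion proteins Tmem8c (myomaker) and Gm7325 (myomixer) were too low to be tested, at mean levels of 0.193 and 0.155 RPKM in KO and 0.032 and 0.024 RPKM in WT libraries.

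Of 14 tested embryonic and regenerating fibre genes, 5 were higher (8.42% of all genes) and 1 lower (8.82%) at an unadjusted p under 0.05. Their median was 0.15. Ncam1, an adhesion molecule of regenerating and denervated fibres (0.53, SE 0.14), and the acetylcholine receptor genes Chrna1 (0.45, SE 0.13) and Chrnd (0.38, SE 0.13) were among those higher. The others were Tnnt2 (0.81, SE 0.32) and H19 (0.67, SE 0.27), and the lower one was Meg3 (-0.29, SE 0.13). In all, 10 members were positive and 4 negative. Embryonic myosin Myh3 measured 22.9, 14.98, 22.5, 20.8 and 18.2 CPM in the WT libraries and 69.03, 22.3, 24.4, 21.3 and 25.9 CPM in the KO libraries (0.71, SE 0.33). Only KO 3779417 was high, and the other libraries of both genotypes lay together. Perinatal Myh8 did not pass (0.10, SE 0.23). Of 18 clock genes (median -0.28, and -0.26 without KO 3805666), 16 were negative (46.6% of all genes). An unadjusted p under 0.05 was reached by 5 of them (8.82% of all genes). They included Nr1d1, a repressor of the loop (-0.37, SE 0.11), Dbp (-0.51, SE 0.17) and Bhlhe41 (-0.58, SE 0.16). The labels used here do not state the time of day of sampling.

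Markers of other cell types were also read, since dissection can change what else a library holds. All 13 tested macrophage markers were positive (53.4% of all genes). An unadjusted p under 0.05 was reached by 6 (8.42% of all genes in that direction). The list's median was 0.50, and 0.41 without KO 3805666. Its summed level ran from 87.3 to 147.8 CPM in WT and from 110.8 to 240.7 CPM in KO libraries. Adgre1, the F4/80 antigen, measured 1.92, 3.77, 2.18, 2.82 and 2.71 CPM in the WT libraries and 4.33, 2.65, 4.84, 7.73 and 3.99 CPM in the KO libraries (0.81, SE 0.27), with KO 3805676 the highest and overlapping groups. All 15 nerve sheath markers were positive with none at an unadjusted p under 0.05 (median 0.30), and their sums overlapped widely, at 99.6 to 728.4 CPM in WT and 111.6 to 888.6 CPM in KO libraries. All 12 tested adipocyte markers were positive and 1 had an unadjusted p under 0.05 (median 0.32), with sums of 267.3 to 698.1 CPM and 288.0 to 853.6 CPM. Without KO 3805666, which had the highest adipocyte sum, that median was 0.04. Endothelial markers had a median of 0.14, fibroblast markers 0.15 (0.07 without KO 3805666), smooth muscle and pericyte markers 0.08 and tendon markers -0.12. The heart markers Nppa, Myl7 and Nkx2-5 were at 0 in all 10 libraries. The part of these cells in the differences above was not tested.

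Genes that follow Myh4 among libraries of 1 genotype were found from a term for Myh4, in units of 10000 CPM, fitted beside genotype. Of 12964 genes, 821 passed the edgeR threshold (6.33%), with 528 rising (4.07%) and 293 falling (2.26%) as Myh4 rose. Those rising included 18 of 27 glycolytic genes and 11 of 16 fast-fibre genes other than Myh4, and those falling 11 of 18 slow-fibre genes and 11 of 24 fatty acid genes. The term rests largely on 1 library: without KO 3805666, 85 genes passed, of which 75 were among the 821. Leading genes that rose were the phosphoglucomutase Pgm2 (0.29, adjusted p = 0.00178, edgeR), the calcium channel subunit Cacng1 (0.32, adjusted p = 0.00178) and the glucose transporter Slc2a3 (0.46, adjusted p = 0.00178). Slc2a3 measured 4.43, 11.5, 10.1, 13.1 and 8.04 CPM in the WT libraries and 3.77, 7.398, 1.57, 5.198 and 4.37 CPM in the KO libraries. Its highest values were in the 3 WT libraries with most Myh4 and its lowest in KO 3805666. Leading genes that fell were thrombomodulin, Thbd (-0.20, adjusted p = 0.00184), the Na,K-ATPase regulator Fxyd6 (-0.20, adjusted p = 0.00284) and the slow-fibre Z-disc gene Myoz2 (-0.26, adjusted p = 0.00306). Fxyd6 measured 94.7, 55.6, 63.9, 54.1 and 68.6 CPM in the WT libraries and 90.9, 91.3, 149.8, 86.7 and 90.2 CPM in the KO libraries. WT 3793543, with the lowest Myh4 of the WT group, lay among the KO libraries.

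**Figure D4:**
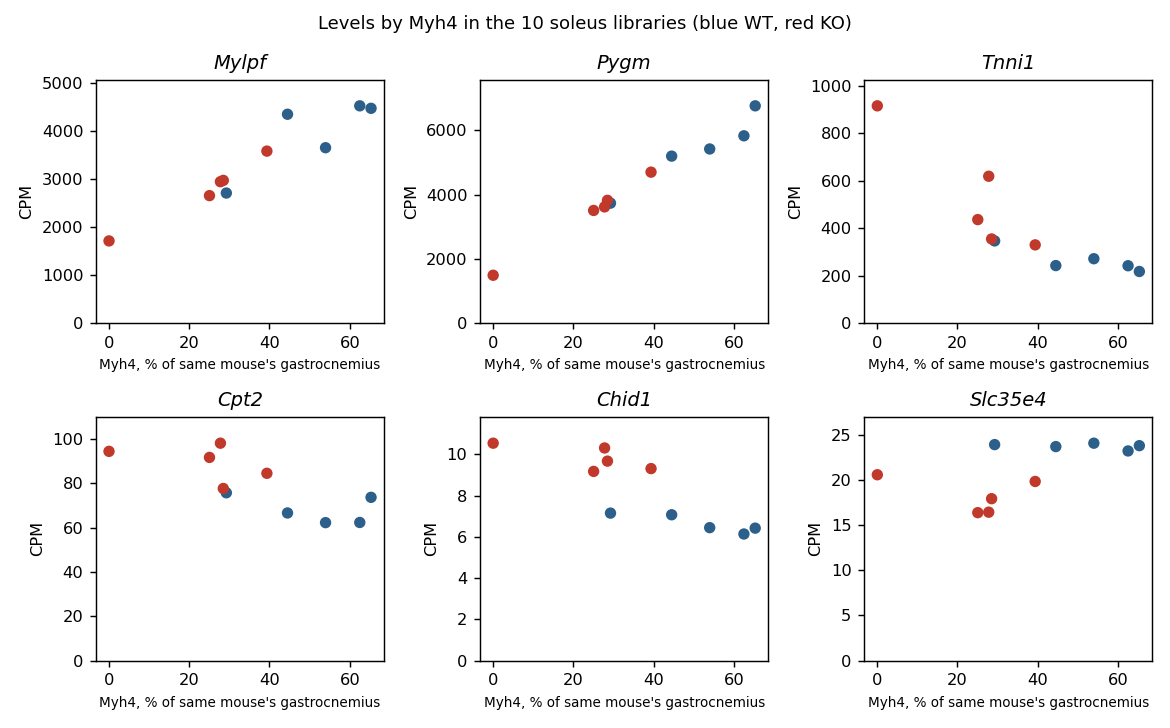
Level of 6 genes (vertical axis, CPM) against Myh4 as a percent of the same mouse's gastrocnemius (horizontal axis), with 1 point per soleus library, WT in blue and KO in red. Mylpf and Pygm are higher and Tnni1 is lower where Myh4 is higher, with the WT point at 29.3% among the KO points; for Chid1 and Slc35e4 that WT point lies with the other WT points.

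The genotype comparison was then repeated with Myh4 as a covariate. Cdh15 was again the single gene past the threshold (0.00771% of 12965), at -2.37 (SE 0.22, edgeR adjusted p = 0.00374). Without WT 3793543, the WT library with least Myh4, it was at -2.52 and did not pass (edgeR adjusted p = 0.173). Genes with an unadjusted p under 0.05 numbered 316 (2.44%), against 2235 without the covariate. Of these, 181 (1.4%) were higher and 135 (1.04%) lower in KO soleus. Where no gene differs, chance gives a share of about 0.05, and 2.44% lies below that. Every higher bin of p with a width of 0.05 held more genes, from 458 to 754. With log2 Myh4 in place of Myh4, the number of genes with an unadjusted p under 0.05 was 1002. The fit with the covariate also recovered fewer changes in simulated data. Each fit had its own simulated data, with its own draw of changed genes. The data for the covariate fit also held genes that follow Myh4, so the percentages are not for the same genes. Of 100 genes changed 1.5-fold, 27% passed the threshold in the fit with the covariate and 69% of another 100 in the fit without it. At a 2-fold change, 80% passed with it and 94% without it. The part of lost power in the smaller number of genes was not tested. Since Myh4 itself differed between the genotypes, with a single WT library inside the KO range, the covariate can also take up differences of genotype, and the effects of both cannot be told apart.

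**Figure D5:**
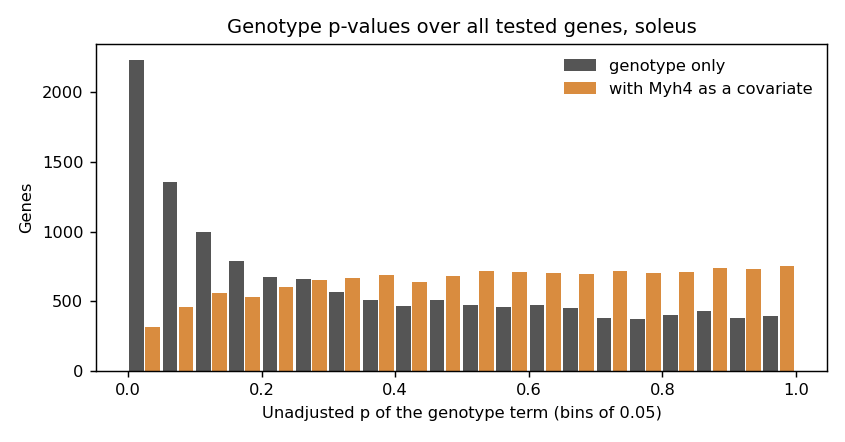
Number of genes (vertical axis) by unadjusted p of the genotype term (horizontal axis, bins of 0.05), for the comparison of genotypes alone in grey and with Myh4 as a covariate in orange. The lowest bin holds 2235 genes without the covariate and 316 with it. With the covariate, every other bin holds more genes than the lowest.

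With the covariate, the slow-fibre list had a median of 0.16 with 14 of 18 positive, and the fast-fibre list, without Myh4 itself, a median of 0.08, where the sign changed, with 13 of 16 positive. The glycolysis list also changed sign, to 0.12 with 25 of 27 positive (52.1% of all genes). Fatty acid genes stayed positive in 24 of 24 with a median of 0.13, and oxidative phosphorylation subunits in 33 of 37 with a median of 0.09. Of these 5 lists, 1 slow-fibre gene, 1 fatty acid gene and 1 glycolytic gene had an unadjusted p under 0.05, each higher in KO. Over all genes in this fit, 1.4% were higher and 1.04% lower at that p. Macrophage markers had a median of 0.31 with 11 of 13 positive, and clock genes one of -0.19. Adipocyte markers went to -0.47 with 11 of 12 negative, and nerve sheath markers to -0.16 with 13 of 15 negative. Single genes with similar differences in both fits included Chid1 (0.56 without and 0.45 with Myh4) and Ppfibp2, a liprin family adaptor (0.42 and 0.47). Slc35e4 (-0.38 and -0.44) and the tyrosine phosphatase gene Ptpn1 (-0.27 and -0.35) were further ones. All were named for a small p in the fit with Myh4, yet each had an edgeR adjusted p of 0.9999 there. Ptpn1 measured 19.9, 18.1, 18.01, 19.1 and 19.03 CPM in the WT libraries and 14.6, 15.6, 17.1, 15.8 and 15.1 CPM in the KO libraries. All KO libraries lay below all WT libraries, KO 3805666 nearest to them.

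Rsph3a and its near copy Rsph3b, radial spoke genes of motile cilia, had opposite signs, with Rsph3a at -0.56, SE 0.14 and Rsph3b at 0.49, SE 0.10. Their values are uncertain because reads shared by the 2 copies can be split between them by the counting.

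The KO-WT difference in soleus was finally set against the mean difference in EDL, gastrocnemius and tibialis of the same mice, over 40 libraries. For Cdh15 the soleus difference departed from that of the other muscles by 0.25 (SE 0.19, edgeR adjusted p = 0.529), which did not pass the threshold. No gene passed the threshold (0% of 13534) and 2225 (16.4%) had an unadjusted p under 0.05. With the mouse as a block, since muscles of 1 mouse share that mouse, 591 genes passed (4.37%), with 183 (1.35%) higher and 408 (3.01%) lower in soleus relative to the other muscles. Mafa departed by -1.67 (SE 0.31, edgeR adjusted p = 0.0621, 0.0229 with the block). In soleus, scaled over the 40 libraries, it stood at 2.46 ± 0.598 CPM for WT against 0.8105 ± 0.462 CPM for KO (mean ± SD, n = 5 each). In gastrocnemius it stood at 3.48 ± 0.638 CPM for WT against 3.43 ± 0.544 CPM for KO, and in tibialis at 4.01 ± 1.11 CPM for WT against 4.27 ± 0.688 CPM for KO. Mafa thus differed between genotypes by more than the spread of the libraries in soleus and not in those muscles.

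On the other side, Pdk1, a kinase that inhibits pyruvate dehydrogenase, stood at 75.1 ± 12.1 CPM for WT against 109.6 ± 14.3 CPM for KO in soleus. In gastrocnemius it stood at 45.9 ± 3.101 CPM for WT against 47.6 ± 2.4 CPM for KO, and the soleus difference departed from the mean of the other 3 muscles by 0.48 (SE 0.11, edgeR adjusted p = 0.0621, 0.0229 with the block). Ncam1 (0.64, SE 0.14) had the same direction and the same p without the block. The WT level of Pdk1 was higher in soleus than in the other 3 muscles. The part that other muscle in a soleus library has in these differences was not tested.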

How the data were processed

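Polyadenylated RNA of 5 KO and 5 WT soleus samples was analysed as stranded libraries, per the labels' protocols. The authors deposited expected counts per gene on mm10, per the submitters' processing notes, which were rounded for the fits, and RPKM values, which match those counts per exon length and library total and were used for shares of myosin chains and levels of untested genes. The aligner, the counting tool and the use of strand were not given in the sources used here. Of the soleus values 86.3% were whole. Rows of 22 marker sequences, at most 0.000803% of counts, were left out of the fits.

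Low genes were removed by filterByExpr with a minimum count of 10, not required in every library, and a minimum total of 15. The edgeR 4.0.16 quasi-likelihood F test (robust, TMM factors, R 4.3.3) was fitted to the 10 libraries by genotype, to the same with Myh4 as a linear covariate, and to 40 muscle libraries for the difference between muscles. Benjamini-Hochberg adjustment ran over all tested genes, with 0.05 as threshold. For single quantities, all 252 divisions of the mice into 5 and 5 gave an exact permutation p. The fits were tested on simulated data. No pair of replicates matched as copies do (smallest chi-square per gene 14.3 over 20 pairs). KO and WT are different mice. Muscles of 1 mouse share that mouse by their labels, and over 30 pairs of its libraries the mean correlation of deviations from group means was 0.248, with 25 above 0.1.

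Named genes are Cdh15 and the adult and developmental myosins fixed by name. To these were added the genes of smallest p each way in each fit at 1 CPM or more. Each list with at least 5 tested members added its 2 of smallest p, and the slow- and fast-fibre lists more than 2 each. Not every gene so chosen is described, and 1 is not reported here. The comparison, the gene lists and the tests were chosen with earlier results of these data known. Alternatives were DESeq2 1.42.0 size factors and its Wald test, limma 3.58.1 with sample quality weights, no filter, age as a covariate or as matched sets, other forms of the Myh4 covariate, the mouse as a block, and each library left out in turn.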

Additional observations from a re-analysis of the deposited data

Results flagged for a closer look

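In 216 groups of 5 values examined, 19 had a highest or lowest value set apart from the rest of its group by more than 0.71 of the group's range. Chance sets apart about 1 group in 20 independent ones. Most groups were of named genes, chosen from these same data and related to each other, so that rate cannot judge the count. Of the 19, 12 concern KO 3805666. Among them, Fxyd6, Myh10 and Myoz2 were named for following Myh4, a term that rests largely on this library. It had the lowest Myh4 share of the adult myosin chains, 0.322%, and the highest Myh7 share, 32.99%. Slow-fibre and related muscle genes were set apart at the top in it, with Myoz2 at 1072 CPM, Myh7b at 45.9 CPM, Myh6 at 30.6 CPM and nonmuscle Myh10 at 210.1 CPM. The oxidative genes Cox7a1 (204.0 CPM) and Ldhb (894.2 CPM), the small heat shock gene Hspb6 (1576 CPM) and Fxyd6 (149.8 CPM) were likewise highest there. The growth factor receptor gene Fgfr1 (84.1 CPM) and the calcium-sensing receptor gene Casr (0.552 CPM) were lowest there. Myh6 and Myh7 lie side by side and are near copies, so reads of one may be counted for the other.

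KO 3779417 was set apart at the top for embryonic myosin Myh3 (69.0 CPM), Icam1 (6.47 CPM) and Rsph3a (14.5 CPM). Smooth muscle actin, Acta2, was set apart at the top in KO 3817943 (55.1 CPM). Among WT libraries, Rsph3b was set apart at the bottom in WT 3793553 (19.4 CPM), the adipokine gene Fam132a at the top in WT 3817948 (7.02 CPM) and haemoglobin Hba-a2 at the top in WT 3805673 (204.3 CPM), where reads shared with its copy are uncertain.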

How the results depend on the processing

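DESeq2's Wald test called 146 genes between the genotypes in place of 1, and 2 with Myh4 as a covariate in place of 1. DESeq2 size factors in the edgeR fit, limma with quality weights, no filter, and age as a covariate or as matched sets called Cdh15 alone. The age sets did not pair the mice: their correlations ran from -0.31 to 0.21. With log2 Myh4 as the covariate 476 genes followed Myh4 in place of 821, of which 271 were among the 821. With the mouse as a replicate block 591 genes differed between soleus and the other muscles in place of 0. Leaving out 1 library at a time gave 1 to 2 genes between the genotypes, 0 to 1 with the covariate, 85 to 877 for the Myh4 term and 0 to 384 for the difference between muscles (384 without WT 3793543 and 337 without KO 3793546). The KO-WT difference ranged from -33138 to -20608 CPM for Myh4, from -32.4 to -20.9 percentage points for Myh4 relative to gastrocnemius, from -32.9 to -15.7 for its share of adult chains and from 4.0 to 10.8 for the share of Myh7. Each kept its direction, and the adjusted p rose above 0.05 when any of 6 of the 10 libraries was left out, where fewer samples also raise it. The small differences of Myh1 (-0.057 to 0.296, lowest without WT 3793553) and Myh8 (-0.028 to 0.277, lowest without KO 3817943) reversed. Of the values of named genes under alternatives, 1606 kept direction and side of the threshold, 59 newly passed it and 11 no longer did. Of list medians, 476 moved by less than the spread between libraries and 20 by more. The cause of these changes was not tested. Depth limits the lowest genes, such as Cdh4 and Mafa, which were under 5 CPM in every soleus library.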

Other observations

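Lists of muscle wasting, stress and nutrition were read in the same comparison of KO with WT soleus, and no member passed the edgeR threshold. DESeq2's Wald test called Sqstm1 and Cebpd, both lower (DESeq2 adjusted p = 0.0298 and 0.0328). It also called Myoz2, of the mechanical stress list, higher (DESeq2 adjusted p = 0.0328). Of 18 mechanical stress genes, 13 were positive (53.4% of all genes), with a median of 0.17, and 0.05 without KO 3805666. Of 18 atrophy genes, 14 had negative fold changes (46.6% of all genes) and 4 of them an unadjusted p under 0.05 (8.82% of all genes), with a median of -0.16. They were the ubiquitin ligase gene Trim63 (-0.77, SE 0.31), the autophagy receptor gene Sqstm1 (-0.37, SE 0.11), the translation inhibitor gene Eif4ebp1 (-0.62, SE 0.20) and Traf6 (-0.15, SE 0.07). Sqstm1 measured 671, 665, 759, 726 and 619 CPM in the WT libraries and 489, 644, 455, 562 and 503 CPM in the KO libraries. The groups overlapped through KO 3793546. With Myh4 as a covariate the median of the list was -0.04.

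Of 17 heat shock genes (median 0.21, and 0.13 without KO 3805666), 13 were positive (53.4% of all genes). An unadjusted p under 0.05 was reached by 3, all higher (8.42% of all genes). Cryab, a small chaperone abundant in slow fibres (0.70, SE 0.23), and Hspb6 (0.46, SE 0.16) were among them, and both fell with Myh4 among libraries of 1 genotype (edgeR adjusted p = 0.00653 and 0.0174). Hspb6 was set apart at the top in KO 3805666. Of 20 fasting response genes, 4 were higher (8.42% of all genes) and 2 lower (8.82%) at an unadjusted p under 0.05 (median 0.05). Among the higher ones was Plin5, a lipid droplet protein of oxidative muscle (0.43, SE 0.13), and among the lower ones Cebpd, a transcription factor induced by glucocorticoids (-0.86, SE 0.26). Of 16 neuromuscular junction genes, 3 were higher (8.42% of all genes) and none lower at an unadjusted p under 0.05 (median 0.07). The 3 were Chrna1, Chrnd and Colq, the collagen tail of acetylcholinesterase (0.53, SE 0.21). Lymphocyte markers summed to no more than 10.6 CPM and liver and kidney markers to no more than 6.56 CPM in any soleus library.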
